A study of Ovis aries with 19 samples.

Results

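Liver of 5 female sheep exposed to excess testosterone before birth was set against liver of 4 female control sheep. These 9 libraries were chosen by tissue and treatment label out of the 19 of the study, whose other 10 came from muscle. Each library held total RNA of a piece of liver from 1 animal, so the replicate was the sheep. The age and breed of the animals, the dose and timing of testosterone, and what the control animals received are, in the sources used here, not given. Each deposited value is a normalized read count, the number of reads on a gene divided by a size factor of the library, and it can be compared between sheep for a gene but not between genes, since it is not divided by gene length. Genes with a mean of at least 10 over the 9 libraries were kept, 13640 of 28524. Values per sheep are given in the order control 98, 131, 179 and 201, then treated 48, 63, 185, 233 and 255.

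The liver makes most proteins of blood plasma, packs triglyceride into lipoproteins, takes up bile acids, amino acids and drugs through membrane carriers, and secretes hormones that act on other organs. Hepatocytes do most of this work, under nuclear receptors and other transcription factors that respond to nutrients and hormones, beside endothelial cells, macrophages, stellate cells and bile duct cells. Female sheep exposed to excess testosterone as fetuses are used as a model of polycystic ovary syndrome, in which reproductive and metabolic disturbances occur together. In RNA of a whole piece of tissue, fewer cells of a type and less RNA per cell cannot be told apart.

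The libraries held 10236610 to 16046301 reads on genes. The hepatocyte markers ALB, TTR and SERPINA1 were high in every liver library, at no less than 112956, 2330.5 and 30055 normalized read counts, and APOA1 was not analysed here. The first principal component of the tested genes took 41.0% of the variance and did not follow treatment: treated 255 and 48 and control 179 lay at the low end, and treated 185 and control 98 and 201 at the high end. Mean log2 scores of ribosomal protein genes, taken against the control mean, ran from -0.60 in control 98 to 0.60 in control 179, so the control libraries alone spanned the range of all 9. Treated 185 stood apart in hepatocyte genes, with a score of -0.71 for 10 hepatocyte markers and -1.41 for 8 cytochromes P450, while treated 255 had 0.64 and 0.65. Several results that rest on treated 185 are therefore given with and without it. The residual SD of a gene had a median of 0.52 on the log2 scale.

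LOC114112267, an uncharacterised locus without a matched symbol, rose in the treated livers. It had 0.647, 0, 0 and 1.11 in the control and 58.96, 26.1, 102, 46.03 and 48.8 in the treated sheep. Every treated sheep was above every control. Summed over sheep these were 2 reads against 261, 133 times more after scaling (exact 95% interval 36.4 to 1104, for counting error only). On the log2(value + 1) scale its fold change was 5.26 ± 0.51 (SE), with an adjusted p of 0.00285 by limma (Benjamini-Hochberg over 13640 genes). It was the only gene that passed, 0.00733% of those tested, and 0 fell. Without control 201, its control mean was 0.216 instead of 0.440. All other adjusted p-values by limma were 0.114 (that of SLC25A45) or higher, so the genes below are described by their values, and "higher" or "lower" refers to the group means.

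An unadjusted limma p under 0.05 was reached by 3.99% of the genes, 1.82% higher and 2.17% lower in treated liver (544 genes, 248 and 296). The groups did not overlap in 1.54% of the genes, 0.858% with all treated sheep above and 0.682% with all treated sheep below the controls. These shares are the background against which each gene list is read, and members of a list that reach them are not calls. Without treated 185 the counts became 337 higher and 492 lower (6.09% of genes), and without control 179 they became 543 and 613 (8.47%). For a list count given without 1 library, the background is the share of all genes in that same fit. That share ran from 2.92% without control 98 to 8.47% without control 179.

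DESeq2, which fits the recovered reads in place of log values, called 32 of 13621 genes (0.235%), 17 higher (0.125%) and 15 lower (0.11%), at an adjusted p under 0.05. Several of them encode metabolic enzymes. MIOX, which opens the ring of myo-inositol, had 336, 62.95, 226 and 205 in control and 50.7, 90.2, 15.5, 24.6 and 21.7 in treated sheep, a log2 fold change of -2.39 ± 0.56 (SE) by limma. Treated 63 lay above control 131, and the other 4 treated sheep lay below all controls. DDO, which oxidises D-aspartate, was higher, with 16.8, 58.1, 34 and 23.4 in control and 68.4, 83.7, 79.3, 124 and 125 in treated sheep. AASDH, an acyl-CoA synthetase family member, had 580.05, 337, 534 and 491 and 1469, 1014, 2285, 2951 and 701, with the highest values in treated 233 and 185. GALNT11, which starts O-linked sugar chains on proteins, had 314, 335, 294 and 369 and 818, 515, 1121, 2437 and 644 and the same pair of sheep on top. NUDT13, a hydrolase of the Nudix family, had means of 444 and 1139.6.

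Other genes that DESeq2 called have varied known roles. NPTX2, a secreted pentraxin of synapses, had 1.94, 0, 7.46 and 5.57 in control and 8.26, 57.6, 69.03, 102 and 7.58 in treated sheep. Treated 63, 185 and 233 carried the difference, and treated 48 and 255 stood just above the highest control. UNC13C, of synaptic vesicle priming, had 82.8, 38.7, 77.1 and 7.79 and 9.43, 9.78, 9.27, 5.35 and 1.08; control 201 lay within the treated range. CTTNBP2, a cortactin-binding protein, had means of 203 and 665, KIAA1549L 107 and 355, and MCTP2, a calcium-sensing membrane protein, 84.8 and 317, in each case with no overlap between the groups. GPRASP1, which sorts receptors to the lysosome, had 121 and 40.4, KLHDC7A 81.9 and 11.2, and SMTNL2 167 and 42.2, with all treated sheep below the controls. SPSB1, a suppressor of cytokine signalling box protein, rested on treated 185 and 233, which had 287 and 425 against 19.1 to 28.9 in the controls and 26.1 to 42.3 in the other treated sheep. CANT1, a calcium-activated nucleotidase, had 942, 887, 941 and 1273 and 347, 322, 605, 213 and 397, all treated sheep below the controls. CD22, an inhibitory receptor of B cells, had 64.7, 31.96, 82.1 and 36.7 and 7.08, 17.4, 6.18, 10.7 and 9.75, also without overlap. Of the 9 tested B and plasma cell markers, 5 were below and 4 above 0, with 1 lower at an unadjusted p under 0.05; their summed level ran from 595 to 2041 in control and from 927 to 1583 in treated liver, and the part of these cells in the CD22 difference was not tested. Another 10 of the 32 calls are loci known by number alone and are not described.

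Genes were grouped by function into lists, which were chosen with earlier results of these data known. A share above that of all genes is therefore a description and not a test. Members of a list are also not independent of each other within a sheep. Several lists of lipid handling, and that of mitochondrial carriers, held larger shares of members at an unadjusted p under 0.05 than all genes did. Most of these members were lower in treated liver. The list of triglyceride synthesis and lipid droplets had 10 of 29 tested members there (34.5%), that of fatty acid oxidation and ketone bodies 10 of 35 (28.6%), lipogenesis 6 of 28 (21.4%), cholesterol synthesis and uptake 6 of 31 (19.4%) and mitochondrial carriers 8 of 51 (15.7%), against 3.99% of all genes. In these 5 lists 0 members were higher at that level. Other lists of this kind had both directions or fewer members: apolipoproteins and lipoprotein assembly had 4 lower and 1 higher of 22 (22.7%), fatty acid uptake and binding 4 lower of 24 (16.7%), and fat cell markers 4 lower of 11 (36.4%, the largest share of the 75 lists). Outside lipid handling, the short list of the thyroid and vitamin D axis had 3 lower of 10, and 1 without control 98 or treated 48 or 233. These lists share members with each other, so they are not independent. Without treated 185 the lower members of the first 5 lists were 10, 8, 6, 5 and 7, and over all libraries left out in turn they ranged from 8 to 11, 7 to 11, 1 to 7, 2 to 7 and 4 to 8. Lipogenesis had 1 and cholesterol synthesis 2 without control 98, lipogenesis had 3 without treated 233, and mitochondrial carriers had 4 without control 131 or treated 48 or 233. At the other end, 58 respiratory chain subunits, 46 proteasome genes, 74 mitochondrial ribosomal proteins, 82 secretory pathway genes and 26 antigen presentation genes had 0 members at that level in either direction. Their medians lay between -0.03 and 0.09, beside 0.00 over all genes. Respiratory chain scores ran from -0.47 to 0.46 among the controls. Their median was -0.16 without control 98 and 0.15 without control 179. With such a spread, 0 members at that level do not show that these genes were unchanged. Without control 179, the mitochondrial ribosomal, secretory and antigen presentation lists each had 2 higher members. Their shares in either direction were then 4.05%, 3.66% and 8.0%, beside 8.47% of all genes.

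**Figure D1:**
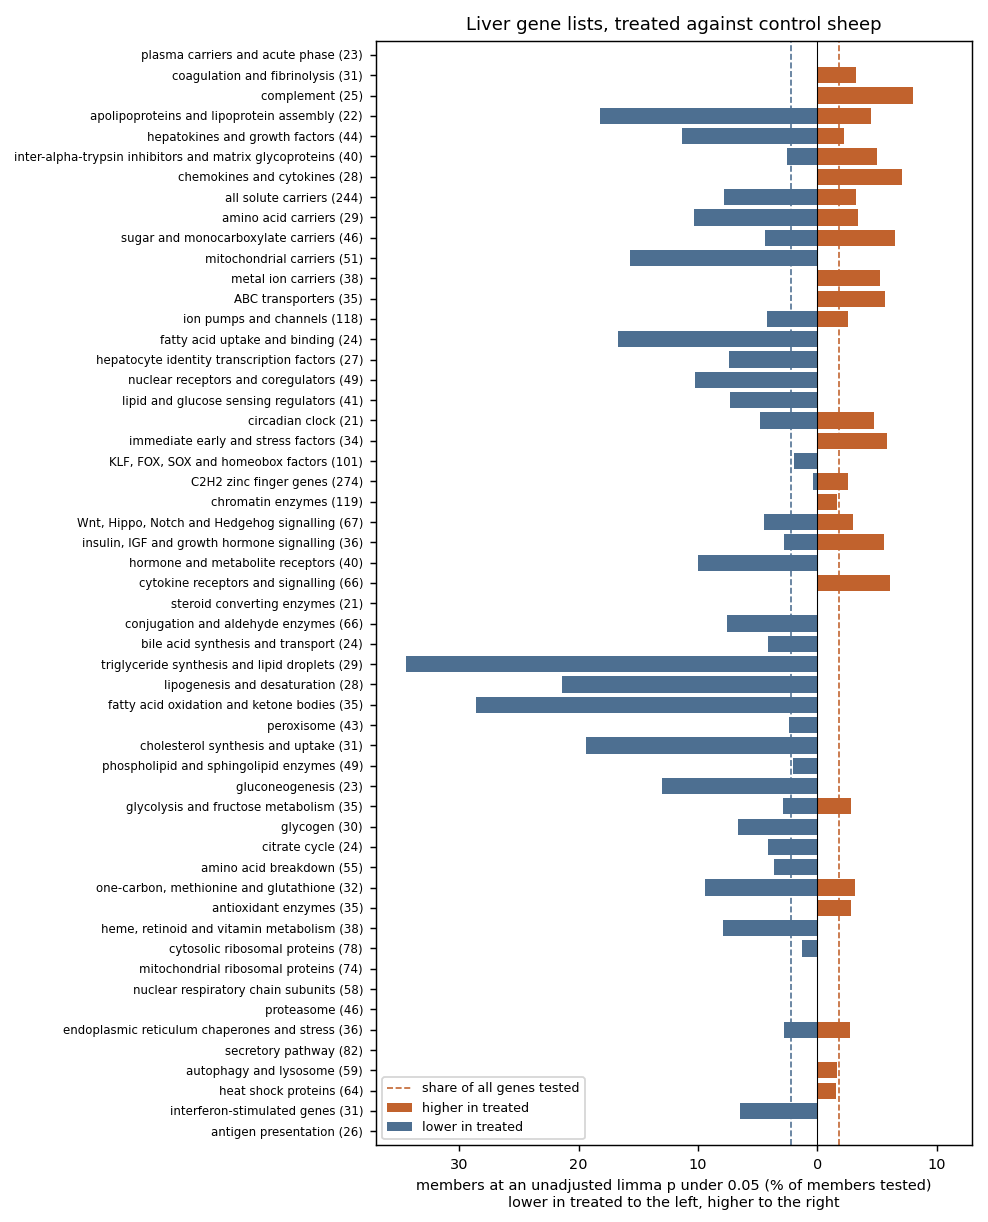
Share of tested members at an unadjusted limma p under 0.05 in each gene list with at least 20 tested members (number tested in parentheses), with members lower in treated liver to the left and members higher to the right. Dashed lines mark the shares over all 13640 genes, 2.17% lower and 1.82% higher; the longest bar is that of triglyceride synthesis and lipid droplets, at 34.5% lower.

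Secreted products were described first, by kind of protein. Of 23 tested plasma carriers and acute phase proteins, 16 were above 0 and 7 below, with a median log2 fold change of 0.15 and 0 members at an unadjusted p under 0.05. In control liver TF, the iron carrier transferrin, had 106373 ± 14267 (SD, n = 4), and in treated liver 109294 ± 21288 (SD, n = 5). HPX, the heme carrier hemopexin, had 49348 ± 19676 (SD, n = 4) and 53759 ± 16939 (SD, n = 5). Of 31 coagulation genes, 14 were above and 17 below 0, with a median of -0.01. The fibrinogen chain FGB had 486757 ± 187972 (SD, n = 4) and 621454 ± 77778 (SD, n = 5). The means differed by less than the control SD and by more than the treated SD.

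The coagulation gene that stood out was SERPINA10, the inhibitor of factor Xa that needs protein Z. It had 2822, 3771, 3599 and 3529 in control and 7468, 4024, 4539, 7567 and 9054 in treated sheep, a log2 fold change of 0.87 ± 0.28 (SE). Treated 63 was just above the highest control and the others lay further away. The other abundant serpins had group means close together: SERPINA1, the elastase inhibitor, had 40854 and 37648, and SERPINC1, antithrombin, 16722 and 19074. Single sheep ran from 30055 to 65686 in control and from 31598 to 40744 in treated liver for SERPINA1.

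Complement genes leaned upward in treated liver. Of 25 tested members 20 were above 0, with a median of 0.19. At an unadjusted p under 0.05, 2 were higher (8.0%, beside 3.99% of all genes). Both are membrane-bound inhibitors of complement. CD55, which speeds the decay of the convertases, had 32.3, 23.2, 50.6 and 28.9 in control and 57.8, 70.6, 53.6, 53.5 and 55.3 in treated sheep. Control 179 came close to the lowest treated sheep. CD59, which blocks the membrane attack complex, had 2829, 3656, 4462 and 5908 and 9661, 5119, 5715, 6809 and 6119, and control 201 lay inside the treated range. C4BPA, the alpha chain of the plasma inhibitor C4-binding protein, had means of 16971 and 24724, and C4BPB, its beta chain, 2419 and 4124. Each of the 5 treated sheep had a higher mean score over the complement list (0.10 to 0.44) than each control (-0.14 to 0.07). That count was 0 without control 131, 1 without control 98 or treated 48 or 233, 4 without control 179 and 5 without treated 185.

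Apolipoproteins and their assembly partners included 4 lower members and 1 higher member at an unadjusted p under 0.05 among 22 tested. Treated 185 had the lowest mean score of this list, at -1.16, and without it 5 were lower and 2 higher. Without treated 233, 3 were lower and 0 higher. APOA5, which helps lipoprotein lipase clear triglyceride, was even among the controls, at 11343, 12066, 12179 and 12054, and had 5013, 7049.9, 1084, 2914 and 6975 in the treated sheep. The 5 treated values lay below all controls and spread more widely than them, with treated 185 lowest. APOA4, a lipoprotein component of liver and gut, had 318, 406, 961 and 1606 and 211, 729, 16.5, 17.1 and 8.67. Treated 63 lay inside the control range, treated 48 below it, and the other 3 at 8.67 to 17.1. TM6SF2, which loads triglyceride onto lipoproteins in the endoplasmic reticulum, had 629, 602, 262 and 456 and 164, 233, 93.8, 287 and 200.4, with a log2 fold change of -1.33 ± 0.36 (SE). Control 179 and treated 233 were the pair that overlapped. ANGPTL8, a secreted inhibitor of lipoprotein lipase, had 309.7, 864, 257 and 274 and 193, 305, 133, 34.3 and 221. Control 131 stood above the other controls there, and treated 63 lay among them. APOB, the main structural protein of secreted lipoproteins, had 13111 ± 3573 (SD, n = 4) and 11754 ± 2779.5 (SD, n = 5), and APOE, a ligand for remnant uptake, 28798 ± 11629 (SD, n = 4) and 26679 ± 8188 (SD, n = 5). For APOB and APOE the difference was smaller than the SD within a group.

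Hormones and growth factors made by the liver were lower more often than higher, with 26 of 44 tested members below 0 and a median of -0.18. At an unadjusted p under 0.05, 5 were lower and 1 higher (13.6%, beside 3.99% of all genes). Without control 131, 3 were lower, and without control 179, 3 were higher. Without treated 185 the median was -0.07, with 6 lower and 2 higher. FGF21, a fasting and stress hormone, had 660.2, 614, 889 and 289 in control and 105, 488, 105, 134 and 19.5 in treated sheep. Treated 63 lay inside the control range and the other 4 lay below it. INHBE, the activin E subunit, which acts on fat tissue, had 6377, 6385, 3869 and 3301 and 2171, 4025, 3116, 1264 and 595. Its lowest treated value was that of sheep 255. IGFALS, which holds IGF1 in a long-lived plasma complex, had 422, 373, 119 and 239 and 152, 70.6, 213, 149 and 111, and control 179 was below treated 48, 185 and 233. BMP6, the signal through which the liver senses iron, was low in both groups, with 27.2, 39.7, 60.5 and 47.9 and 15.3, 24.99, 24.7, 26.8 and 26 and no overlap. IGF1 itself had 4269 ± 2256 (SD, n = 4) and 4162 ± 1107 (SD, n = 5), and control 201 at 1212 was below all other sheep. FST, a follistatin that binds activins, was the higher member, with means of 157 and 250.1.

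Matrix and signalling proteins moved in both directions. SPP1, osteopontin, a secreted glycoprotein made by bile duct cells and macrophages, had 434, 82.3, 2223 and 1576 in control and 5044, 1827, 5549, 8457 and 5496 in treated sheep. Its log2 fold change was 2.99 ± 0.80 (SE), and treated 63 lay between control 201 and control 179. Of the markers of bile duct cells, KRT7 had means of 39.9 and 47.7, and 9 of the 15 tested bile duct markers were below 0. Their summed level ran from 7782 to 12459.8 in control and from 10559 to 15712 in treated liver, with SPP1 itself in the sum. Macrophage markers had a median of 0.09, and 0 of 17 reached an unadjusted p under 0.05; the part of either cell type in the SPP1 difference was not tested. EFEMP1, a fibulin of elastic fibres, had 32.98, 32.9, 32.3 and 18.9 and 61.3, 46.7, 37.1, 67.4 and 67.2, all treated sheep above. COL18A1, the collagen from which endostatin is cut, had 8123, 4225, 2919.9 and 7471 and 2459.9, 2575, 2403, 2533 and 2113. The treated sheep were alike, within 2113 to 2575, and the controls spread from 2920 to 8123; DESeq2 called it, with an adjusted p of 0.044.

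Chemokines and cytokines were above 0 in 21 of 28 tested members, with a median of 0.26. At an unadjusted p under 0.05, 2 were higher (7.14%, beside 3.99% of all genes). That count was 0 without control 131 or treated 255 and 4 without treated 185. CXCL9, an interferon-induced attractant of T cells, had 41.4, 65.9, 152 and 102 and 222, 315, 56.7, 255 and 335. Treated 185 was inside the control range and the other 4 were above it. CXCL10, of the same function, had 37.5, 55.2, 47.3 and 31.2 and 75.5, 203, 24.7, 125 and 130.01, with treated 185 below every control and the other 4 above every control. CXCL12, which retains blood cells, had 973, 546, 729.8 and 720.1 and 1237, 904, 997, 961 and 2162. Markers of T and NK cells were above 0 in all 21 tested members, with a median of 0.43. At an unadjusted p under 0.05 there were 3 (14.3%, beside 3.99% of all genes). That count was 1 without control 131 or 201 or treated 63 or 233, and 5 without treated 185 or 255. Their summed level ran from 670.2 to 852 in control and from 714 to 1434 in treated liver, with treated 255 within the control range of the mean score. The part of these cells in the chemokine values was not tested.

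**Figure D2:**
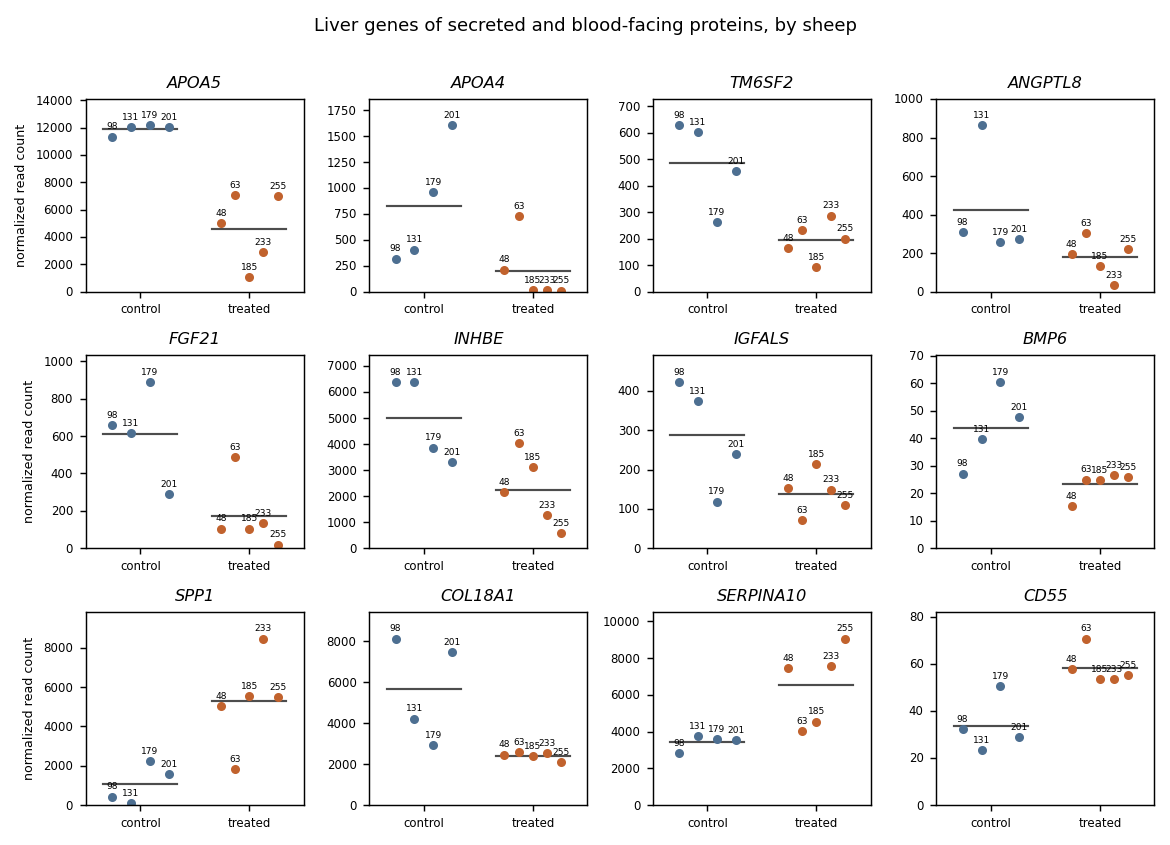
Normalized read count (linear axis from 0) of 12 genes of secreted or blood-facing proteins in each liver library, labelled by sheep number; the line is the group mean of 4 control or 5 treated sheep. The treated sheep lie below every control for APOA5, BMP6 and COL18A1 and above every control for SERPINA10 and CD55, and the groups overlap in the other 7 panels.

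Transporters as a family were lower slightly more often than higher. Of 244 tested solute carriers, 149 were below and 95 above 0, with a median of -0.10; 19 were lower and 8 higher at an unadjusted p under 0.05, together 11.1%. In 6 of the tested solute carriers all treated sheep lay below the controls, and in 0 all lay above. Over all genes these shares were 0.682% below and 0.858% above. Without control 179 the lower members numbered 34, and without control 98 or treated 233 they numbered 12. The higher members numbered 2 without control 131 and 5 without control 98.

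Carriers of the mitochondrial inner membrane were mostly lower. Of 51 tested, 35 were below 0, with a median of -0.17. SLC25A45, the family member with the smallest p, had 69.8, 80.4, 87.9 and 60.1 in control and 11.8, 14.1, 5.15, 9.63 and 19.5 in treated sheep, a log2 fold change of -2.63 ± 0.38 (SE). The highest treated sheep had less than the lowest control by a wide gap. SLC25A20, which brings acylcarnitines into mitochondria for oxidation, had 1331, 1316, 1411 and 929 and 778, 799, 536, 745 and 495. SLC25A47, a carrier made almost only by the liver, had 6934, 7318, 3993 and 8768 and 2709.9, 5463, 2758, 2099 and 1255, with treated 63 above control 179. SLC25A30, a kidney-type uncoupling carrier, had 2372, 2397, 3776 and 2235 and 2027, 1684, 727, 344 and 1562, lowest in treated 233 and 185. SLC25A1, which exports citrate for fatty acid synthesis, had means of 917 and 465, SLC25A22, a glutamate carrier, 1052 and 523, SLC25A42, a coenzyme A carrier, 915 and 462, and SLC25A4, an ADP/ATP exchanger, 1655 and 1126. The respiratory chain, in the same membrane, had a median of -0.01 over 58 subunits, which was -0.16 without control 98 and 0.15 without control 179.

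Genes of carnitine uptake and of fatty acid uptake, activation and binding mostly had lower means as well. SLC22A5, which takes up carnitine, had 845, 448, 669 and 575 and 318, 551, 263, 176 and 154, and only treated 63 lay inside the control range. Of 24 tested genes of fatty acid uptake and binding, 20 were below 0, with a median of -0.31, and 4 were lower at an unadjusted p under 0.05. ACSL5, which activates fatty acids with coenzyme A, had 2629, 1999, 2349 and 2424 and 1296, 1877, 1636, 821 and 1325. ACSL1, its main liver relative, had 13853, 12882, 18678 and 8930.1 and 9423, 7239, 6489.7, 6428 and 10079, with control 201 below treated 48 and 255. MFSD2A, a carrier of lysophospholipids, had 491, 99.8, 624 and 623 and 132, 213, 80.4, 73.9 and 33.6. Control 131 was as low as the treated sheep there. FABP1, the liver fatty acid-binding protein, had 9421, 11008, 23478 and 3828 and 4999, 4273, 895, 9742 and 10313, spread too widely in both groups for a difference to stand out.

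Hepatocyte uptake carriers of bile acids, drugs and organic ions were below 0 in 13 of 19 tested members, with a median of -0.40 that was -0.04 without treated 185. At an unadjusted p under 0.05, 3 were lower and 0 higher (15.8%, beside 3.99% of all genes). The lower members numbered 2 without control 98 or 131 or treated 233, 4 without treated 63 and 6 without control 179. SLC10A1, the sodium-driven bile acid carrier, had 2652, 2915, 3525 and 2250.3 and 2404, 2279, 269.9, 2104 and 8061. Treated 185 and 255 were the lowest and highest of all 9 sheep. SLC22A7, an organic anion carrier, had 1939.95, 2189.7, 1155 and 1267 and 1127, 1348, 929, 439 and 779, with treated 63 above control 179 and 201. SLCO2A1, a prostaglandin carrier of endothelium, had 328, 118, 277 and 619 and 129, 142, 135, 54.6 and 74.8, with control 131 among the treated values. On the canalicular side, ABCB11, the bile salt export pump, had 3792 ± 1158 (SD, n = 4) and 4183 ± 3371 (SD, n = 5), and ABCC2, which exports conjugated bilirubin, had 2536 ± 642 (SD, n = 4) and 2653 ± 831 (SD, n = 5). For both exporters the groups overlapped and the means differed by less than the SD.

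Amino acid carriers included 3 lower members and 1 higher member at an unadjusted p under 0.05 among 29 tested (13.8%, beside 3.99% of all genes). Without control 179 or treated 185 the lower members numbered 5. SLC1A4, a neutral amino acid exchanger, had 153, 97.8, 130.2 and 85.7 and 50.7, 57.6, 68, 44.96 and 78. SLC38A7, a lysosomal glutamine carrier, had 248, 133, 133 and 203 and 93.2, 99.97, 117, 62.1 and 44.4. Both had all treated sheep below the controls. SLC38A4, a system A carrier of hepatocytes, went the other way, with 3827, 4052, 9332 and 3785 and 9588, 5692, 6373, 14392 and 12654, and control 179 lay at the level of treated 48. SLC38A3, the system N glutamine carrier of periportal hepatocytes, had means of 966 and 889.

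Carriers of vitamins, sugars and monocarboxylates were mixed. SLC19A1, the reduced folate carrier, had 282, 207, 191 and 254 and 118, 122, 151, 32.1 and 67.2, all treated sheep below. SLC16A4, a monocarboxylate carrier family member, had 28.5, 57.1, 89.6 and 38.95 and 175, 122, 49.5, 318 and 263, and treated 185 alone lay inside the control range. SLC16A7, which carries pyruvate and lactate with high affinity, had 362, 372, 945 and 446 and 1216, 503, 1063, 793 and 1363. Control 179 was high for SLC16A4, SLC16A7 and SLC38A4 alike. SLC16A1, the widespread lactate carrier, was lower, with means of 3385 and 1716, as was SLC37A4, the glucose 6-phosphate carrier of glucose release, with 1225 and 769.97. SLC2A2, the main glucose carrier of hepatocytes, had 659 ± 438 (SD, n = 4) and 622 ± 235 (SD, n = 5).

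Ion pumps and channels were below 0 in 66 and above 0 in 52 of 118 tested members, with a median of -0.05. At an unadjusted p under 0.05, 5 were lower and 3 higher (6.78%, beside 3.99% of all genes). All treated sheep lay below the controls for 3 members and above them for 1, beside 0.682% and 0.858% of all genes. Without control 179, 9 were lower and 10 higher. The water and glycerol channels and the proton pump subunit given next are single genes and do not stand for their class. AQP3, an aquaglyceroporin, had 1684, 1201, 1310.2 and 1269.8 in control and 704, 630.2, 785, 164 and 455 in treated sheep, a log2 fold change of -1.49 ± 0.40 (SE). AQP7, the glycerol channel known from fat cells, had 1136, 586, 1577 and 1246 and 496, 731, 139, 64.2 and 81.3, and treated 63 lay above control 131. AQP9, the glycerol channel of hepatocytes, was not lower: it had 2712, 2434, 4533 and 3209 and 5322, 4362, 3474, 3949.9 and 7529. ATP6V1B1, a subunit of the vacuolar proton pump best known from acid-secreting kidney cells, had 249.6, 297, 192 and 128 and 38.9, 98.9, 97.9, 56.7 and 23.8. DESeq2 called it, with an adjusted p of 0.0289. CLCN5, an endosomal chloride and proton exchanger, had 113, 80.4, 107 and 94.6 and 69.6, 48.9, 56.7, 44.96 and 43.3. The fat cell markers that moved with AQP7 and the droplet genes were below 0 in 9 of 11 tested members, with a median of -0.54 and 4 lower at an unadjusted p under 0.05. That count was 2 without control 201 or treated 185, 233 or 255. ADIPOQ, which defines fat cells, was at 0 in all controls and at most 1.18 in treated liver, and LEP was at most 3.34 in control and 0 in treated liver. The summed level of that list ran from 15369.8 to 21835 in control and from 10198 to 24534 in treated liver.

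Among 38 tested metal ion carriers 2 were higher at an unadjusted p under 0.05 (5.26%, close to the 3.99% of all genes). That count was 0 without control 131 or treated 233, and the 2 genes given next do not stand for their class. STEAP4, a metalloreductase induced by inflammatory signals, had 925, 249.9, 800.2 and 429.6 and 1403, 909, 2928, 8779.7 and 529, and SLC39A14, a zinc and iron importer of the acute phase response, had 7896, 6336, 4854 and 8009.7 and 8987, 7034, 17494, 16882 and 8646. In both, treated 185 and 233 stood far above the other 7 sheep, and the other treated sheep lay within or near the control range. ABCA10 had 1099.95, 1489, 1181 and 1446 and 2621, 1589, 1698, 2639.7 and 4006, and ABCA6 of the same gene cluster had 2396, 1671, 967 and 2061 and 2649.7, 2362, 5014, 4116 and 2077. Their roles are little known, and reads could be shared between such closely related genes. Over 35 tested ABC transporters the median was -0.11.

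**Figure D3:**
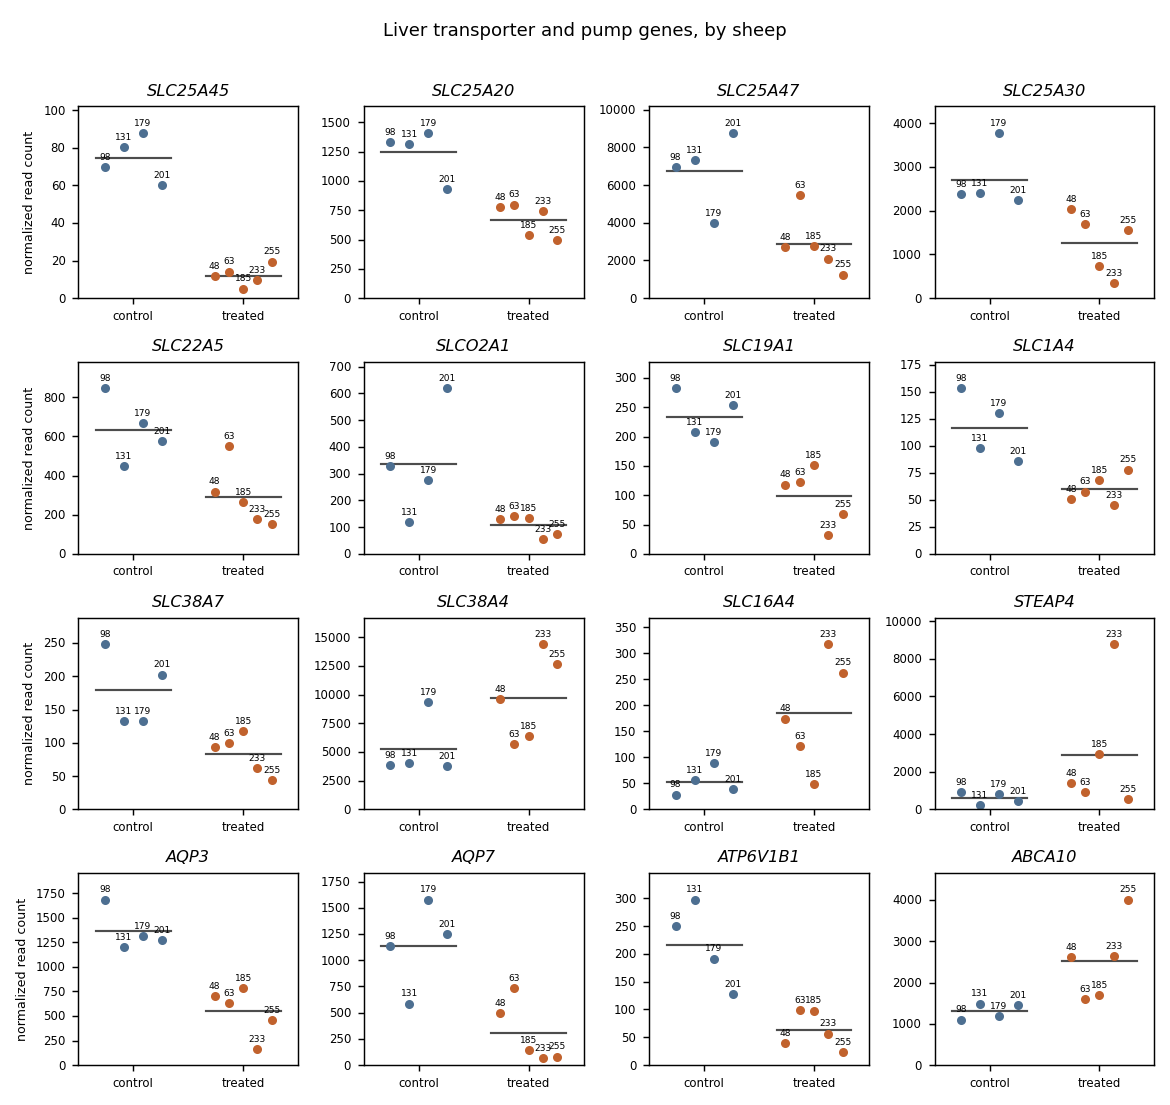
Normalized read count (linear axis from 0) of 16 transporter, channel and pump genes in each liver library, labelled by sheep number; the line is the group mean of 4 control or 5 treated sheep. The treated sheep lie below every control for SLC25A45, SLC25A20, SLC25A30, SLC19A1, SLC1A4, SLC38A7, AQP3 and ATP6V1B1 and above every control for ABCA10.

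Regulators were read next, from the transcription factors that define hepatocytes to those that respond to signals. Of 27 tested hepatocyte factors 19 were below 0, with a median of -0.20. At an unadjusted p under 0.05, 2 were lower and 0 higher (7.41%, beside 3.99% of all genes). CREB3L3, a liver factor that drives fasting and triglyceride-clearing genes, had 6725, 5968, 5436 and 5239.6 in control and 3180.4, 4715, 3002, 2522 and 2470.1 in treated sheep, a log2 fold change of -0.91 ± 0.24 (SE). Every treated sheep lay below the controls. NFIX had means of 116 and 65.6. HNF4A, the central factor of hepatocyte identity, had 3588 ± 1351 (SD, n = 4) and 2577 ± 732 (SD, n = 5), and CEBPA had 128 ± 53.3 (SD, n = 4) and 83.05 ± 14.1 (SD, n = 5); the groups overlapped for both. The number of lower members was 1 without control 131 or 201 or treated 48, 233 or 255, 4 without treated 185 and 6 without control 179.

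Nuclear receptors and their coregulators were below 0 in 37 of 49 tested members, with a median of -0.29. At an unadjusted p under 0.05, 5 were lower and 0 higher (10.2%, beside 3.99% of all genes). NR1I2, the pregnane X receptor that senses drugs, had 3474, 3665, 2532 and 2895 and 2052, 2392, 1381, 371 and 2376. Treated 233 was far below the others. THRA, a thyroid hormone receptor, had 943, 654, 388 and 1001 and 377, 475, 489, 252 and 473, with control 179 within the treated range. THRB, the thyroid hormone receptor that predominates in liver, had low counts of 75.01, 27.1, 25.7 and 33.4 and 12.97, 17.4, 34, 17.1 and 11.9, and treated 185 lay inside the control range. NR1D1, a repressor of the circadian clock, had 199.8, 218, 92.9 and 348 and 132, 137, 101, 19.3 and 73.7; control 179 and treated 48, 63 and 185 overlapped. ESR1, the estrogen receptor, had 1669 ± 341 (SD, n = 4) and 1824 ± 578 (SD, n = 5), NR3C1, the glucocorticoid receptor, 994 ± 396 (SD, n = 4) and 1009.7 ± 294 (SD, n = 5), and PPARA, the fatty acid sensor, 1506 ± 386 (SD, n = 4) and 1491 ± 461 (SD, n = 5). For these 3 receptors the means differed by less than the SD within a group. The list depends on single libraries: it had 0 members at that level without control 98 or 201, 1 without treated 233, 3 without control 131 or treated 48 or 255, 8 without treated 185 and 9 without control 179.

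Among the factors that sense sterols, fatty acids and glucose, SREBF1 and SREBF2 drive fatty acid and cholesterol synthesis. SREBF1 had 383, 123, 134 and 174 and 124, 84.8, 175, 64.2 and 81.3, where control 98 stood above all others. SREBF2 had 958, 526, 439 and 1002 and 325, 403, 693, 335 and 361, where treated 185 lay inside the control range and the other 4 lay below it. MLXIPL, the carbohydrate response factor, had 1880.1 ± 863 (SD, n = 4) and 1971 ± 1094 (SD, n = 5), and PPARGC1A, a coactivator of fasting genes, 298 ± 78.7 (SD, n = 4) and 277 ± 188 (SD, n = 5). Neither pair of means differed by more than the SD. Over 41 tested members of this list the median was -0.06.

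Factors of growth and stress signals split by direction. KLF11, a zinc finger factor that acts on metabolic genes, had 893, 928, 1010.1 and 771 and 547, 752, 492, 245 and 388, and SMAD7, the inhibitor of TGF-beta signalling, had 237, 158, 129 and 186 and 109.7, 83.7, 101, 51.4 and 28.2. All treated sheep lay below the controls for both. The rest of that list gave little: of 101 tested KLF, FOX, SOX, homeobox and related factors, 2 reached an unadjusted p under 0.05 (1.98%), below the share over all genes. Without control 179 or treated 185 or 63 that list had 7, 6 and 6 lower members (7.84%, 7.0% and 5.83% in either direction). All genes gave 8.47% without control 179 and 6.09% without treated 185. Of 274 C2H2 zinc finger genes 8 did (2.92%), and of 119 chromatin enzymes 2 (1.68%), among them KDM1B, a histone demethylase, with means of 525 and 898. Without control 179 the zinc finger genes had 14 higher and 6 lower members (7.25%) and the chromatin enzymes 2 higher and 4 lower (5.04%). Both shares were below the 8.47% of all genes in that fit.

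Of 34 tested immediate early and stress factors 22 were below 0, with a median of -0.17. At an unadjusted p under 0.05, however, 2 were higher (5.88%, beside 3.99% of all genes). Without control 131, 1 was higher, and without control 201, 4 were lower. NFIL3, named with the clock list, a transcription factor of the clock and of immune cells, was higher as well and had 289, 352, 459 and 334 and 518, 523, 1083, 1466 and 508, with treated 185 and 233 highest. DDIT3, induced by endoplasmic reticulum stress and amino acid shortage, had 119.6, 117, 72.98 and 146 and 163, 209.7, 208, 268 and 185. All treated sheep lay above the controls for NFIL3 and DDIT3. The chaperone and stress list around DDIT3 had a median of 0.09 over 36 members, with 1 member higher and 1 lower at an unadjusted p under 0.05. SGK1, a kinase induced by glucocorticoids and the other of the 2, had 1515, 259.6, 553 and 388 and 1652, 782, 2767, 3420.03 and 879. Control 98 was above treated 63 and 255. Of 67 tested Wnt, Hippo, Notch and Hedgehog genes, 3 were lower and 2 higher at that level (7.46%, beside 3.99% of all genes). The higher members numbered 0 without control 131 or 201 or treated 255, and the lower ones 1 without treated 233 and 5 without control 179 or treated 185. HES1, a Notch target, had means of 191 and 104, and TCF7L1, a Wnt pathway repressor, 149 and 65.5.

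Receptors and their signalling parts followed a different course by class. The 36 tested insulin, IGF and growth hormone signalling genes had a median of -0.07. At an unadjusted p under 0.05, 2 were higher and 1 lower (8.33%, beside 3.99% of all genes). Without control 201, 0 were higher. INSR, the insulin receptor, had 1173, 1273, 1465 and 1396 in control and 1397, 1357, 1248, 1409 and 1382 in treated sheep, within a narrow range in both groups. GRB14, an adaptor that inhibits the insulin receptor, had 314, 784, 648 and 401 and 1048, 835, 599.6, 814 and 1503, with control 131 and 179 inside the treated range. PIK3R3, a regulatory subunit of the kinase PI3K, had means of 22.6 and 51.3, and EIF4EBP1, which holds back translation until it is phosphorylated, 201 and 105. GHR, the growth hormone receptor, had 7053 ± 4171 (SD, n = 4) and 9013 ± 2711 (SD, n = 5).

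Cytokine receptors and their signalling genes were above 0 in 45 of 66 tested members, with a median of 0.16. At an unadjusted p under 0.05, 4 were higher and 0 lower (6.06%, beside 3.99% of all genes). CSF2RB, the shared receptor chain of GM-CSF, IL3 and IL5, had 111, 72.6, 94.5 and 80.1 and 117, 125, 476, 377 and 241. IL1R1, the signalling receptor of interleukin-1, had 1948, 1667, 1182 and 1702 and 2454, 2062, 6653, 8699 and 1409, and IL1R2, its decoy receptor, had 73.1, 70.7, 71.3 and 34.5 and 139, 92.4, 380.2, 918 and 54.2. Treated 185 and 233 were the highest of all sheep for all 3 genes, and treated 255 lay within the control range for IL1R1 and IL1R2. Without treated 185, and likewise without treated 233, 1 of the list's members was higher at that level; without control 201 there were 2 and without treated 255 there were 8. IL1R2 is also a neutrophil marker, and the summed level of the neutrophil and mast cell list ran from 201 to 322 in control and from 308 to 1092 in treated liver. Of its 7 tested members 3 were above and 4 below 0, and its part in these values was not tested.

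**Figure D4:**
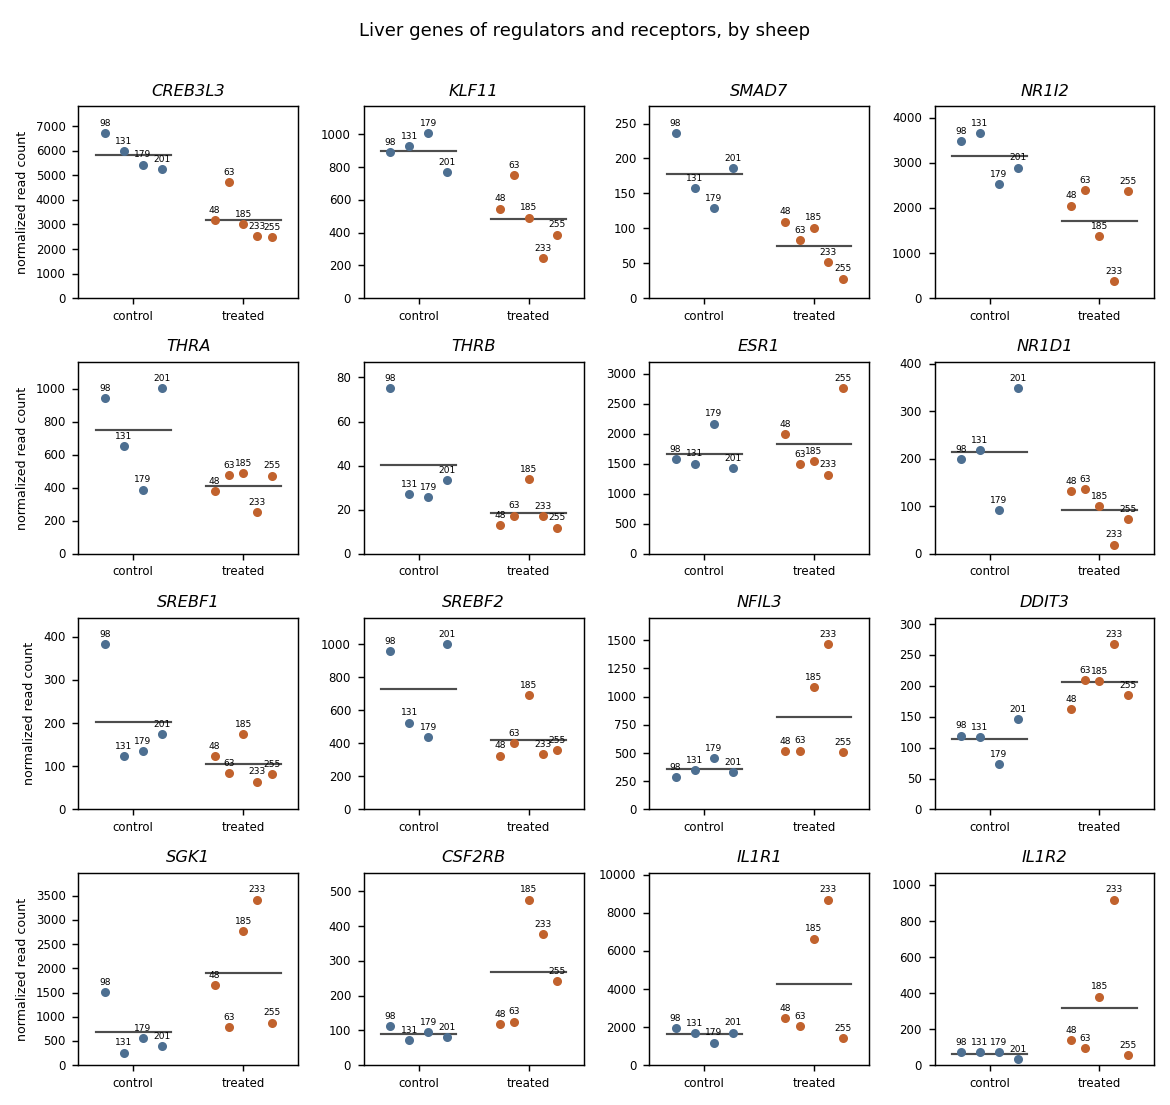
Normalized read count (linear axis from 0) of 16 genes of transcription factors, a kinase and receptors in each liver library, labelled by sheep number; the line is the group mean of 4 control or 5 treated sheep. The treated sheep lie below every control for CREB3L3, KLF11, SMAD7 and NR1I2 and above every control for NFIL3, DDIT3 and CSF2RB; treated 185 and 233 are the highest for SGK1, CSF2RB, IL1R1 and IL1R2.

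Enzymes of metabolism made up the largest set of lists. In fatty acid oxidation and ketone bodies, 28 of 35 tested members were below 0, with a median of -0.39 (-0.25 without treated 185). All treated sheep lay below the controls for 5 of the 35, beside 0.682% of all genes. The trifunctional protein of the oxidation spiral is built of HADHA and HADHB. HADHA had 4552, 3558, 3966 and 4032 in control and 2199, 2069, 2091, 2254 and 1447 in treated sheep, and HADHB 6412, 6909, 9827 and 5738 and 5658, 3988, 3443, 4289 and 3038. MLYCD, which removes the malonyl-CoA that blocks entry of fatty acids, had 1247, 934, 747 and 1058 and 566, 707, 564, 543 and 364. CPT1A, the gate of entry into mitochondria, had 4612, 3261, 4814 and 3026 and 3049.5, 3285, 2169.8, 1676 and 2811, with control 201 and 131 inside the treated range. Over 43 peroxisome genes, where very long chains are oxidised, 1 reached an unadjusted p under 0.05 and the median was -0.13.

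Triglyceride and droplet genes were below 0 in 26 of 29 tested members, with a median of -0.68 that was -0.58 without treated 185 and -0.44 without treated 233. AGPAT3, an acyltransferase of phosphatidic acid synthesis, was the member whose groups did not overlap, with 1635, 1458, 1426 and 1673 and 1149.8, 1208, 804, 720.4 and 969.6. PLIN5, which ties droplets to mitochondria, had 505, 887, 260.4 and 511 and 252, 374, 184, 214 and 302, with control 179 inside the treated range. CIDEB, which fuses lipid onto lipoproteins and droplets, had 1297, 1276, 1135 and 1869 and 834, 1281, 589, 354 and 917, with treated 63 inside the control range. DGAT2, which makes triglyceride in its last step, had 938 ± 189.6 (SD, n = 4) and 658 ± 380.4 (SD, n = 5), and GPAM, which takes the first step, 1726 ± 453 (SD, n = 4) and 1346 ± 1013 (SD, n = 5); for GPAM treated 255 was the highest of all sheep. Phospholipid and sphingolipid enzymes, which use the same precursors, had a median of -0.00 over 49 members, with 1 at an unadjusted p under 0.05.

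In cholesterol synthesis, DHCR7, which makes cholesterol in the last step, had 590.4, 271, 479 and 284 and 211, 229, 138, 63.2 and 247, and LSS, which closes the sterol rings, had 649.9, 534, 432 and 431 and 371, 280.3, 317, 238 and 418. Both had all treated sheep below the controls. Bile acid synthesis and transport genes had a median of -0.28 over 24 members, which was -0.09 without treated 185, and 1 member at an unadjusted p under 0.05, NR1I2.

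Most genes of glucose release had lower means. Of 23 tested gluconeogenesis genes 20 were below 0, with a median of -0.27, and 3 were lower at an unadjusted p under 0.05. That count was 1 without treated 233 and 5 without control 131 or 179. The rate-setting enzymes were not among them: PCK1 had 8632, 7582, 10363 and 15189 and 17285, 11521, 6589.7, 6527 and 19039, and G6PC had 2958 ± 779 (SD, n = 4) and 3570.2 ± 2039.9 (SD, n = 5). KHK, which phosphorylates fructose, had 3812, 4852, 2466 and 2957 and 2258, 2695, 1449, 1325 and 1680.3, with treated 63 inside the control range. STBD1, which anchors glycogen for breakdown in lysosomes, had 1670.3, 2777, 1968 and 1484 and 1467, 1334, 690.3, 738 and 1262, and the groups did not overlap. PDK3, a kinase that shuts off pyruvate dehydrogenase, was higher, with means of 45.8 and 95.1 and its highest values in treated 233 and 185.

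Of 32 tested genes of one-carbon, methionine and glutathione metabolism, 3 were lower and 1 higher at an unadjusted p under 0.05 (12.5%), with a median of -0.11. The lower ones numbered 1 without control 98 and 6 without control 201. AHCY, which breaks down S-adenosylhomocysteine after methylation reactions, had 9816, 7499.9, 11475 and 7976 and 4357, 6804, 4536, 3606 and 3158, and SHMT2, which feeds mitochondrial folate with one-carbon units, had 1249, 1055, 1039 and 1082 and 1008, 757, 742, 766 and 598. All treated sheep lay below the controls for both, as they did for the folate carrier SLC19A1 above. GLUL, glutamine synthetase of pericentral hepatocytes, was higher, with 4503, 4349, 3386 and 2526 and 4337, 4459, 5156, 6855 and 6810.1. CPS1, the first enzyme of the urea cycle, had 29561 ± 8101 (SD, n = 4) and 32069 ± 12943 (SD, n = 5). Of 55 amino acid breakdown genes 2 were lower and 0 higher at an unadjusted p under 0.05 (3.64%), with a median of -0.07. Without treated 185, 4 were higher and 2 lower (10.9%, beside 6.09% of all genes) and the median was 0.07. Without control 179, 7 were lower (12.7%, beside 8.47% of all genes).

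Steroid converting enzymes and cytochromes P450 had 0 members at an unadjusted p under 0.05 among 21 and 8 tested; without treated 233, 2 steroid converting enzymes were lower. AKR1D1, which reduces steroid hormones and bile acid precursors, had 2581, 6375, 6183 and 2742 and 7496, 3009.9, 1271, 4648 and 12523, SRD5A2, which makes dihydrotestosterone, 121, 67.8, 53.1 and 70.1 and 29.5, 49.98, 83.5, 59.9 and 54.2, and HSD11B1, which regenerates cortisol, means of 11685 and 10942. Their groups overlapped widely. Treated 185 had the lowest AKR1D1 and treated 255 the highest. Among conjugating enzymes, UGT1A1, which glucuronidates bilirubin, had 752, 356, 394 and 631 and 233, 254, 292, 379 and 263, but the UGT1A genes share their downstream exons, so how reads were split between them is uncertain. CES4A, a carboxylesterase, had means of 467 and 177, and DHRS3, which turns retinal back into retinol, had 2769.6, 2249, 1557 and 1886 and 1323, 1477, 1295, 969 and 1258. SOD2, the mitochondrial superoxide dismutase, was the antioxidant gene that differed most, with 11602, 3027, 9779.6 and 11484 and 30962, 11886, 45791, 13974 and 15086. All treated sheep lay above the controls, treated 63 by a small margin and treated 185 by the widest; no other of the 35 tested antioxidant genes reached an unadjusted p under 0.05.

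**Figure D5:**
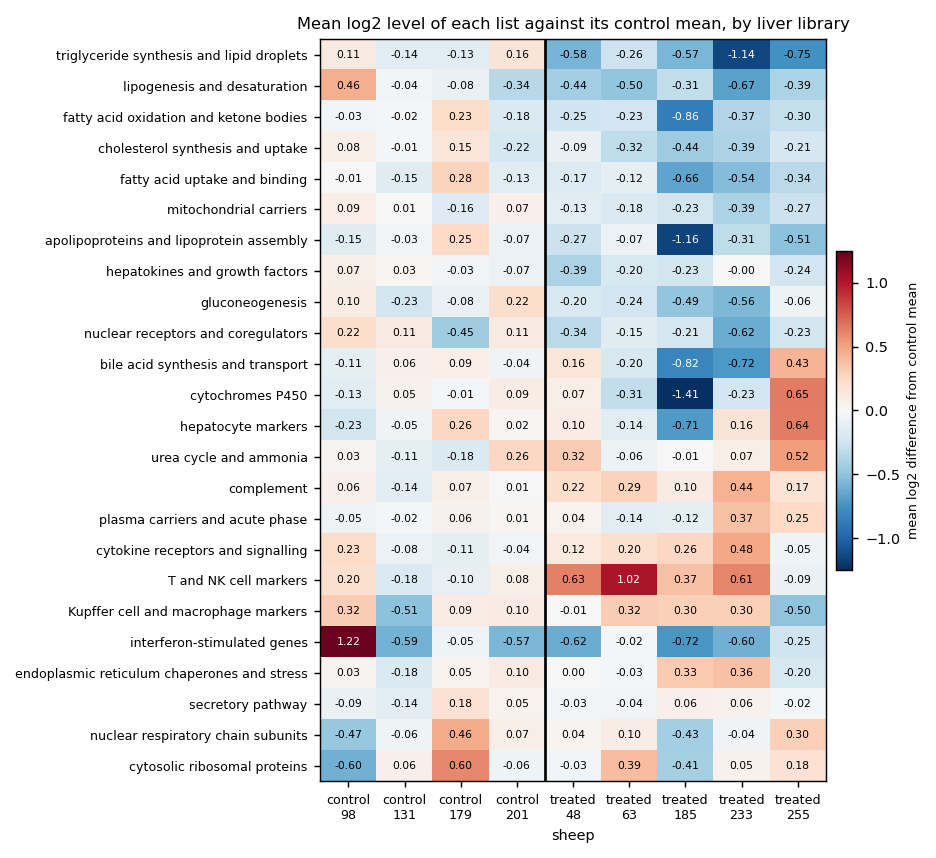
Mean log2 level of 24 gene lists in each liver library, as the difference from the mean of the 4 controls; columns are sheep, red is higher and blue is lower. All 5 treated columns are at or below the control mean in the first 10 lists, but the groups can still overlap there. Every treated score is below every control score for triglyceride synthesis and for fatty acid oxidation. Control 179 (-0.45) lies below treated 48, 63, 185 and 255 (-0.34 to -0.15) for nuclear receptors. Control scores also reach into the treated range for lipogenesis, mitochondrial carriers and gluconeogenesis. Treated 185 and 255 lie at opposite ends for cytochromes P450 and hepatocyte markers, and interferon-stimulated genes stand out in control 98. The 24 lists are a selection of those scored.

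Of 20 tested endothelial markers 15 were below 0 and 1 was lower at an unadjusted p under 0.05 (3 without treated 185); of 19 stellate cell and fibroblast markers 10 were below 0 and 1 was lower at that level. Their summed levels overlapped, at 4325 to 7061 in control and 3163 to 6902 in treated liver for endothelium. Interferon-stimulated genes were below 0 in 26 of 31 tested members, with a median of -0.30 that became -0.02 without control 98, whose score was 1.22 and that of the other controls -0.59 to -0.05. NEB, the nebulin gene of striated muscle, had 37.5, 57.1, 61.4 and 63.4 and 20.05, 15.2, 25.8, 6.42 and 13 and was called by DESeq2 (adjusted p of 0.0233). All 6 tested striated muscle markers, NEB among them, were below 0, with a median of -0.63. TTN, titin, was at most 42.3 in control and 10.9 in treated liver, MYH1, a myosin heavy chain, at most 35.7 and 0, ACTA1 at most 9.12 and 1.09, and CKM at most 2.49 and 0. The summed level of the list ran from 195 to 387 in control and from 154 to 235 in treated liver. The part of striated muscle RNA in the NEB difference was not tested.

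The treatment difference in liver was set against that in muscle, over 11697 genes with a mean of at least 10 in each tissue. The muscle libraries came from the same 9 sheep and from control 132, and this fit did not pair the tissues of a sheep. The difference of both effects passed for 1 gene, 0.00855%, by limma (adjusted p of 0.0497), TMEM82, an uncharacterised membrane protein. In liver TMEM82 had 623, 547, 437 and 476 in control and 200.5, 442, 241, 349 and 284 in treated sheep, all but treated 63 below the controls. In muscle, where control 132 stands between 131 and 179, it had 36.7, 34.6, 31.9, 31.3 and 30.1 and 87.3, 55.8, 75.6, 75.8 and 55.3, all treated sheep above. The liver effect minus the muscle effect was -1.87 ± 0.30 (SE) on the log2 scale. The call held without control 179 or treated 63 and was lost without any of the other liver libraries (control 98, 131 or 201, treated 48, 185, 233 or 255), with adjusted p-values of 0.0578 to 0.232. An unadjusted p under 0.05 for this difference was reached by 573 genes (4.9%). LOC114112267 had 0.992, 2.17, 0, 3.48 and 0 in control and 65.95, 18.6, 66.9, 25.6 and 87.4 in treated muscle, and its liver effect minus muscle effect was 0.70 ± 0.74 (SE), which did not pass. The lowest treated value of LOC114112267 in either tissue was 18.6 and the highest control value 3.48.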

How the data were processed

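RNA-seq libraries of sheep liver and muscle were prepared from total RNA (TruSeq RNA kit, per the labels' protocols). The submitters' processing notes name Trimmomatic, STAR and featureCounts 1.6.1; build, annotation and strandedness are not given in the sources used here. What the authors deposited is a signal, counts divided by a size factor per library. 100% of the liver values gave whole reads within 0.01 read, and the scaling equalled the median of ratios within a tissue.

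Genes with a mean of at least 10 in liver were tested on log2(value + 1) with limma 3.58.1 (mean-variance trend, two-sided, Benjamini-Hochberg at 0.05) in R 4.3.3. The procedure was also run on counts simulated for each gene on its own. Those lack shifts shared by many genes of a library, so that run does not cover them. Fold changes on the log2(value + 1) scale understate low genes. The difference between tissues was fitted on all 19 libraries. edgeR 4.0.16 and DESeq2 1.42.0 on the recovered reads, other filters, pseudocounts, scalings and weights, and each library left out were alternatives. The sheep number in the labels was taken to pair both tissues of an animal. Deviations from group means correlated over genes at a median of 0.177 within a sheep and -0.019 between sheep. Centring on the means of small groups lowers correlations between sheep of a group, so part of that gap can be built in.

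The 75 gene lists and the members were chosen with earlier results of these data known, so lists carry counts and medians and no test. A list score is the mean log2 difference of its members from the control mean. The rule for named genes took the 12 smallest p-values per direction, 4 smallest p-values and 3 highest means per list, and all genes called by limma or DESeq2, 448 genes in all; 123 of them are printed, with 22 of the 32 DESeq2 calls, and this selection among them was made by known role after their values were seen. TMEM82 and 22 other named genes fall outside this rule and were chosen after their values were seen: APOB, CEBPA, CIDEB, CPT1A, DGAT2, FST, G6PC, GPAM, HADHB, HPX, IGF1, INSR, KRT7, NR3C1, PLIN5, PPARA, PPARGC1A, SLC25A22, SLC25A4, SLC25A42, SLC2A2 and SLC38A3.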

Additional observations from a re-analysis of the deposited data

Results flagged for a closer look

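In 27 of 442 groups examined, 1 sheep stood further from the others than Dixon's 95% critical value allows; chance alone gives about 1 in 20. Among controls, sheep 131 had 864 for ANGPTL8, sheep 98 had 11343 for APOA5 and 75.01 for THRB, sheep 201 had 1273 for CANT1, 18.9 for EFEMP1 and 34.5 for IL1R2, and sheep 179 had 415 for PPARGC1A, 945 for SLC16A7, 3776 for SLC25A30 and 9332 for SLC38A4. Control 179 was also the lowest for the mean scores of hepatocyte transcription factors (-0.23), nuclear receptors (-0.45) and the circadian clock (-0.36). Among treated sheep, 63 had 729 for APOA4, 70.6 for CD55 and 488 for FGF21, and 48 had 15.3 for BMP6. Treated 255 had 10005 for ABCB11, 2162 for CXCL12, 1447 for HADHA, 8061 for SLC10A1 and 1048 for SLC37A4. Treated 185 had 3852 for HNF4A, 3856 for MLXIPL, 693 for SREBF2 and 34 for THRB, and was the lowest for fatty acid oxidation (-0.86). The treatment effects in liver and muscle differed for TMEM82, by -1.87 on the log2 scale in the fit of all 19 libraries (limma adjusted p of 0.0497).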

How the results depend on the processing

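LOC114112267 passed under every alternative that kept it, with adjusted p-values from 5.16e-07 to 0.0288, and dropped out where a mean of at least 50 was required, which left 0 genes. DESeq2 called 17 genes higher and 15 lower, and edgeR 1 higher and 0 lower. Array weights called 1 lower gene and gave 694 higher and 826 lower genes at an unadjusted p under 0.05. Fitting all 19 libraries gave 5 higher and 4 lower calls, with 427 and 509 at the unadjusted level without the sheep as a block, and 5 and 4, with 433 and 496, with the sheep as replicate block. No filter gave 665 lower genes at that level. For these counts the cause was not tested. Leaving out each library gave 1 higher and 0 lower calls each time, with 191 to 543 higher and 195 to 613 lower genes at the unadjusted level; the top of both ranges was without control 179, and the lowest count of lower genes without control 98.

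For the difference between tissues, TMEM82 was lost at a pseudocount of 4 (0 calls), and the block kept it (adjusted p of 0.0276) and changed no other call. A mean of at least 50 gave 196 in place of 299 lower genes at the unadjusted level. Leaving out each liver library gave 0 to 1 higher and 0 to 2 lower calls, with 193 to 873 higher and 219 to 833 lower genes at that level; without treated 185 these were 452 and 625.

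The ratio of group means moved by over 1.5 times without 1 library for 15 named genes. Without treated 63 the treated mean was 63.3 for APOA4, 195 for AQP7 and 90.8 for FGF21; without treated 233 it was 166 for IL1R2, 208 for MCTP2, 95.7 for SPSB1 and 1442 for STEAP4; without treated 255 it was 2728 for ABCB11 and 1764 for SLC10A1. The control mean was 280.2 for ANGPTL8 without control 131, 44.7 for KLHDC7A and 400.4 for SGK1 without 98, 697 for SPP1 without 179, and 9.68 for TTN and 0.216 for LOC114112267 without 201. Of 75 list medians, 34 changed sign under at least 1 alternative. Those of triglyceride, fatty acid oxidation, lipogenesis, cholesterol and mitochondrial carrier genes kept their sign, as did every other list outside the 34. Keeping a sign is thus not particular to these lists and is no test of a difference. With 4 and 5 sheep, small differences could not be told from the spread between animals.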
